A study of Mus musculus with 5 samples.

Results

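The expression of 47 genes that act in germ cells or in meiosis was examined in 2 somatic cell types of the mouse, out of 24744 genes in the deposited files. The genes were taken by name, in a list drawn up with earlier results of these data known and with no threshold on their values, and asked of each was whether it was silent or measurable in cells that neither form gametes nor enter meiosis. They fell into 7 roles: 6 genes of germ cell identity, 7 of the synaptonemal complex, 6 of the meiotic axis and cohesin, 8 of double-strand breaks and recombination, 4 of meiotic telomeres and kinetochores, 10 of the piRNA pathway and germ granules, and 6 oocyte factors and zona pellucida genes. Every one of the 47 had at least 1 transcript row in each file.

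RNA-seq was available for neural stem cells (NSCs), in 2 replicates, and for STO cells, in 3 replicates, all labelled C57BL/6 with no transgene or drug named. The NSCs were primary cells from the cortex of E12.5 embryos, grown with EGF and bFGF for 5 to 8 passages, and STO cells are a line of SIM mouse embryonic fibroblasts resistant to thioguanine and ouabain, kept in serum for more than 30 passages and so 1 long-cultured line, and in the study they also served as feeder cells under female germline stem cells. The study classed NSCs with germline stem cells as adult stem cells and STO cells as somatic, and also compared induced pluripotent stem cells. Here NSCs and STO cells are both called somatic, being outside the germline. Expression in the study's other cell types was not analysed here.

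In meiosis, chromosomes break their own DNA, pair with their homologues and are held together by the synaptonemal complex, a zipper of lateral and central elements, before crossovers form. Germ cells also hold transposons in check with piRNAs, small RNAs bound by PIWI proteins in granules whose scaffolds are Tudor domain proteins. Somatic cells keep many of these genes off through DNA methylation of CpG-rich promoters and through a repressor complex around E2F6, MGA and MAX, which binds E2F sites and E-boxes.

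Because such promoters carry known letters, the promoters of the 4 detected members with the highest mean level and a RefSeq entry, and of 4 silent members taken in alphabetical order, are shown first. Each line holds the 250 bases before the start of transcription and the first 5 transcribed bases, from RefSeq (GRCm38.p6), read on the gene's strand and placed by an exact match on mm9. Capitals mark TTCCCGC or its complement GCGGGAA, the core of an E2F6 site, and CACGTG, the E-box bound by MGA and MAX.
Tdrd7: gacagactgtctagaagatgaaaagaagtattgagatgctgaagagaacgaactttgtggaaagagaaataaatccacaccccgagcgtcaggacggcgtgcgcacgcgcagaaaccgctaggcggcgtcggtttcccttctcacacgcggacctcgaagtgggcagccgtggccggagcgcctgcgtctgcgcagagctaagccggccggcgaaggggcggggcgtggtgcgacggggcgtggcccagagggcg
Syce2: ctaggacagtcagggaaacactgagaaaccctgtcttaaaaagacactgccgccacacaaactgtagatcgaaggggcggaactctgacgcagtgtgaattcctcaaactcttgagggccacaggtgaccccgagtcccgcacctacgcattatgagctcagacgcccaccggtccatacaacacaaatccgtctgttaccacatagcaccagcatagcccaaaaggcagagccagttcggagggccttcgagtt
Prdm9: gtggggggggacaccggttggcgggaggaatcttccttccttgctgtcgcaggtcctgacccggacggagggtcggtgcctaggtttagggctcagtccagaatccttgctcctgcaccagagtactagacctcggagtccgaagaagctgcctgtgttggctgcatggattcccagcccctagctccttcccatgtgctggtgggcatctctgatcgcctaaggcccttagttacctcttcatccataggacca
Stag3: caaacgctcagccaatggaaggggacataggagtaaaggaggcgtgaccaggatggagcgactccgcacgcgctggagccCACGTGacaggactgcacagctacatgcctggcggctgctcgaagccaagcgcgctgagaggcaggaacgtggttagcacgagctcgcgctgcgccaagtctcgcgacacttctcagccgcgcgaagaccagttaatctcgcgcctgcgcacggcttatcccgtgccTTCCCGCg
Asz1: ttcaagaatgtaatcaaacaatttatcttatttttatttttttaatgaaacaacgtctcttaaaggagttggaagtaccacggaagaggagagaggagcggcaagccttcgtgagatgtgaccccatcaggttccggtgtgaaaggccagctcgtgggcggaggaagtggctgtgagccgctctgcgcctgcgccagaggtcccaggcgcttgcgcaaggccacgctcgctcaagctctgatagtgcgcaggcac
Dazl: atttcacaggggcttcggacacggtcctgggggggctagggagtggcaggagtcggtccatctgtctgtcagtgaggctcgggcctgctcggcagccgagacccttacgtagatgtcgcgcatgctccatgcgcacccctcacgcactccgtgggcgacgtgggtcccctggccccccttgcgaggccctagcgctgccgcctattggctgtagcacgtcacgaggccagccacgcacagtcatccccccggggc
Ddx4: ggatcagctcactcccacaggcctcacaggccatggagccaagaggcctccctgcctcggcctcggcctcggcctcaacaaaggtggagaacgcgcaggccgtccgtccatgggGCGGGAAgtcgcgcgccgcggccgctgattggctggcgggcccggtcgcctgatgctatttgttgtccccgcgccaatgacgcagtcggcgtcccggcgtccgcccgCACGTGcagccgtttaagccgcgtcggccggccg
Dmc1: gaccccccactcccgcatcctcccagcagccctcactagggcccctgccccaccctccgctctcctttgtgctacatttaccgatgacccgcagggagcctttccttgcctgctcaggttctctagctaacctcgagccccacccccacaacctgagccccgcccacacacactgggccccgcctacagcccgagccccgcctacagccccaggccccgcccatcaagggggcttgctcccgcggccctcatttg

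The Tdrd7 window lies at chr4:45984919-45985173, the Syce2 window at chr8:87395760-87396014, the Prdm9 window at chr17:15700291-15700545 and the Stag3 window at chr5:138721487-138721741. Those of the silent genes lie at chr6:18059057-18059311 for Asz1, chr17:50432941-50433195 for Dazl, chr13:113442514-113442768 for Ddx4 and chr15:79435535-79435789 for Dmc1. Among these 8, both motifs stood in the windows of Stag3, which was measured in NSCs, and of Ddx4, which was detected in no sample. A further pair of silent synaptonemal complex genes, Sycp3 at chr10:87922082-87922336 and Tex12 at chr9:50369369-50369623, is shown because both motifs were found in their windows; this pair was chosen after the matches were seen.
Sycp3: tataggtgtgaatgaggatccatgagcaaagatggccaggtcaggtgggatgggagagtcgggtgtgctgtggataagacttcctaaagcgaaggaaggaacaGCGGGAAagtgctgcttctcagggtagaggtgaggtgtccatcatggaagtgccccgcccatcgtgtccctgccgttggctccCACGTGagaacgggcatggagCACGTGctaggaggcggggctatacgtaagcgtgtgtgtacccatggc
Tex12: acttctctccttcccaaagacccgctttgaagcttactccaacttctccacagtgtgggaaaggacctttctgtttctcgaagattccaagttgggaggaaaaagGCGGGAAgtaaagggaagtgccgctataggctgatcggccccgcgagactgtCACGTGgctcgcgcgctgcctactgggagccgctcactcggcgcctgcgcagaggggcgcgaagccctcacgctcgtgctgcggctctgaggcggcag

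Levels are FPKM, which divide the fragments of a transcript by its length and by the size of the library, summed over the transcripts of a gene, so that levels of different genes are compared per length. The files also give the lower and upper bounds of a confidence interval. Taking the distance to the upper bound as 2 standard deviations of a Poisson count gives the number of fragments behind a value, and a gene was called detected in a sample where the lower bound of at least 1 transcript was above 0, which took more than 4 implied fragments. By this measure the libraries held 20587283 and 22271895 fragments in NSC replicates 1 and 2, and 15223341, 17078753 and 21952753 in STO replicates 1, 2 and 3. For the transcripts of the 47 genes, 1 fragment was worth a median of 0.0140 to 0.0200 FPKM, depending on the sample. An exact 0 is what the file lists, and a failed estimate would look alike.

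Marker genes of each cell type were highest where the labels place them. Those of NSCs summed to 3811 and 4028 FPKM in the NSC replicates and to 0.0442 to 0.0724 in STO cells, and fibroblast markers to 5.05 and 5.12 in NSCs and 1352 to 1462 in STO cells. The NSC samples also held transcripts of glia, with Gfap at 15.9 and 16.9 FPKM and Mbp at 83.4 and 88.3 FPKM, and the part of such cells in the values below was not tested. In the study's RT-PCR, the astrocyte marker Gfap served as a negative control for cultured NSCs. Replicates of a cell type correlated at 0.994 to 0.995 on log2(FPKM + 1) across genes that averaged 1 FPKM or more over the 5 samples, and no pair of replicates shared an identical value above 0. Genes that mark germline stem cells but also serve in other tissues were Gfra1, Zbtb16, Etv5, Ret, Itga6 and Ifitm3. All 6 were detected in every NSC replicate and 4 in every STO replicate (54.3% and 49.2% of all genes). The germ cell helicase Ddx4, Dazl and Dppa3 were detected in no sample.

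Most germline genes were not detected. Of the 47, 29 were detected in no sample, against 38.8% of all genes. Of these, 15 were listed at 0 in all 5 samples, which is 31.9% of members and close to the 28.8% of all genes. In all, 8 were detected in every NSC replicate and 6 in every STO replicate, where the shares of all genes were 54.3% and 49.2%. Only 4 members, Tdrd7, Syce2, Prdm9 and Msh5, were detected in all 5 samples (45.8% of all genes). Stag3, Mei4 and Tdrd6 were detected in both NSC replicates and in no STO replicate (6.96% of all genes), and Sycp1 in the 3 STO replicates and in no NSC replicate (2.59% of all genes). The last 2 counts also stood near the shares of all genes.

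**Figure D1:**
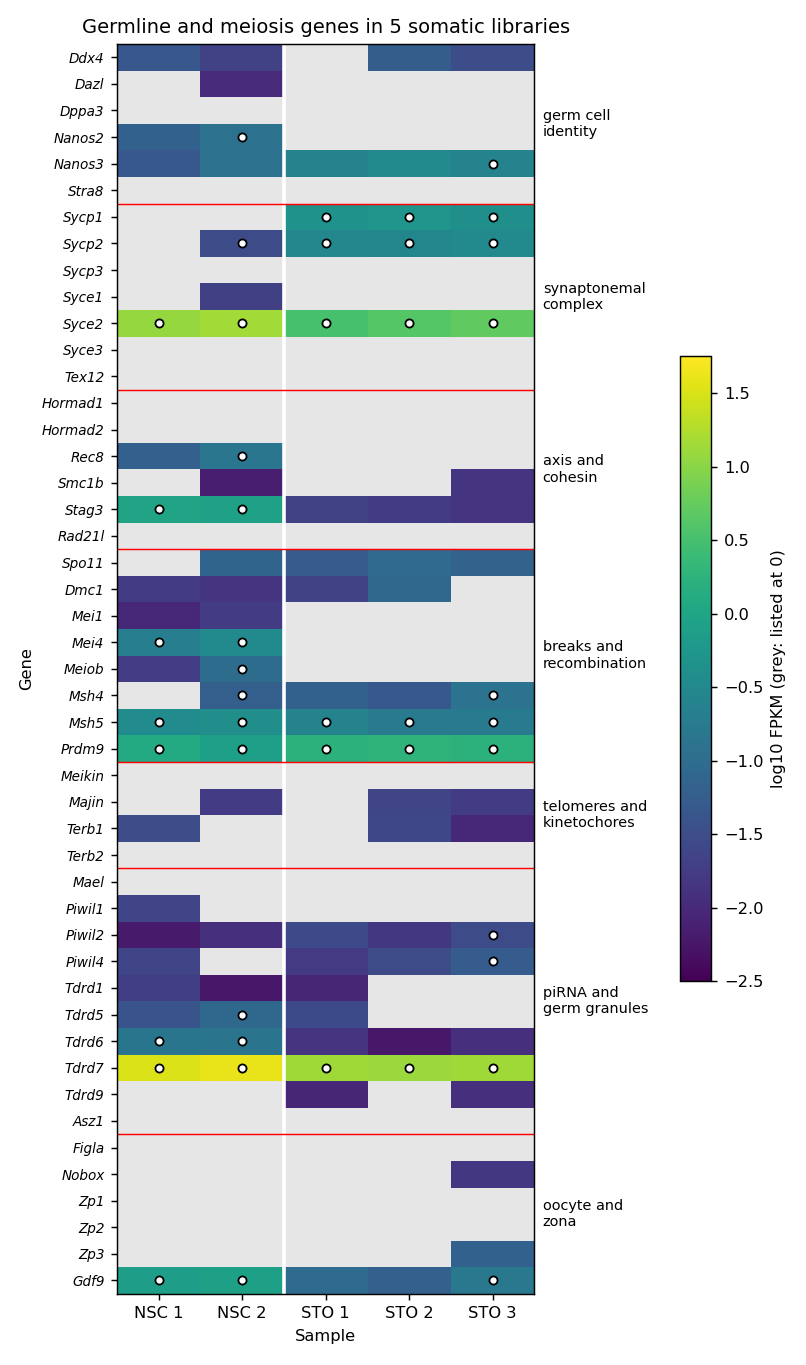
FPKM of the 47 germline and meiosis genes (rows, grouped by role) in the 2 NSC and 3 STO samples (columns), on a log10 colour scale with genes listed at 0 in grey; a white dot marks a gene detected in that sample. Tdrd7 and Syce2 are the brightest rows, and 15 rows are grey throughout.

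The bulk of the signal came from 2 genes. The summed level of the 47 was 50.4 and 58.9 FPKM in NSCs and 20.5, 20.8 and 22.3 FPKM in STO cells, and without Tdrd7 and Syce2 it was 4.07 and 4.25 against 3.34, 3.57 and 3.52 FPKM. The 2 cell types did not overlap on either sum. FPKM summed over all genes was also higher in NSCs (442905 and 446393 against 396613, 385485 and 399970). The part of that offset in the sums of the members was not tested. Since these are bulk samples, a low level in all cells and a higher level in few cells cannot be told apart, for these genes or any below.

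STO cells and NSCs were compared with limma on log2(FPKM + 1) over the 12265 genes whose mean reached 1 FPKM in either cell type, of which 41.9% were higher and 43.7% lower in STO cells at an adjusted p under 0.05. The members Tdrd7, Syce2 and Prdm9, entered this comparison. The median difference of all genes tested was -0.02. The labels do not say that replicates came from separate cultures, so the p-values measure the spread between these samples only. With the minimum lowered to 0.1 FPKM, 12 members entered (39.8% of 14548 genes were higher and 43.8% lower), most of them only through the cell type where they were higher. The calls of that fit are counted below among the alternative settings and are not used for single members. For members under 1 FPKM the difference is given instead from a fit with no minimum, in which every gene was tested whatever its level. In it all 47 were tested, of which 3 passed as higher in STO cells (21.9% of all genes) and 10 as lower (24.8%). Of the 18 members detected in at least 1 sample, 11 had every NSC value above every STO value and 5 the reverse, against 46.1% and 41.8% of the genes so detected. Detection in 1 sample was enough to enter, so members such as Stag3, Mei4 and Sycp1 entered only through the cell type where they were higher. Some rest on few implied fragments, such as Meiob with 1.00 and 6.00 in NSCs. These counts are description only. Differences on log2(FPKM + 1) understate the change of genes with low values. Stag3, Sycp1, Sycp2 and Mei4 had values of 0 or of few fragments in the lower cell type. Their SE and p-values with no minimum therefore do not reflect counting error. With a minimum of 0.1 FPKM their SEs were 0.040, 0.045, 0.038 and 0.053.

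Among the piRNA and germ granule genes, Tdrd7 was the highest member in every sample. It encodes a Tudor domain protein of the chromatoid body in spermatids that also acts in the lens. Its levels were 34.2 and 40.1 FPKM in NSC replicates 1 and 2, and 13.8, 12.9 and 13.7 FPKM in STO replicates 1, 2 and 3. All NSC values lay above all STO values, with means of 37.1 ± 4.18 (SD, n = 2) and 13.5 ± 0.488 FPKM (SD, n = 3). The log2 difference of STO cells to NSCs was -1.39 (SE 0.079, limma adjusted p = 6.32e-06). It came from 2 transcripts: NM_146142 with 23.6 and 26.1 against 8.89 to 10.4 FPKM, and NM_001290475, which starts further upstream, with 10.6 and 14.0 against 3.33 to 4.02 FPKM. The neighbouring gene Tmod1, 4457 bases downstream, was at 7.82 and 7.37 FPKM in NSCs and listed at 0 in STO cells.

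The other genes of this role were low or silent. Tdrd6, another Tudor protein of the chromatoid body, was at 0.140 and 0.136 FPKM in NSCs, on 29.1 and 31.1 implied fragments, and at 0.0137, 0.00597 and 0.0124 FPKM in STO cells, where it was not detected. The NSC values lay above those of STO cells (log2 difference -0.17, SE 0.0043, limma adjusted p = 8.1e-05 with no minimum), although the files gave the NSC signal to NM_001161366 in replicate 1 and to NM_001161367 in replicate 2. That SE and p-value reflect 2 NSC values that lay close together, and not their counting error. The deposited intervals of the 2 NSC values ran from 0.0878 to 0.191 and from 0.0873 to 0.185 FPKM. With a minimum of 0.1 FPKM the SE was 0.032. Its neighbour Pla2g7, 3134 bases away on the other strand, was at 63.7 and 64.1 FPKM in NSCs and at 5.13 to 6.04 FPKM in STO cells.

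Tdrd5, Piwil2 and Piwil4 were detected in 1 sample each. Tdrd5, needed for transposon silencing in spermatocytes, was at 0.0404 and 0.0843 FPKM in NSCs and at 0.0281, 0 and 0 FPKM in STO cells, and was detected in NSC replicate 2. Of the PIWI genes, Piwil2 (MILI) was at 0.00647 and 0.0118 FPKM in NSCs and 0.0271, 0.0157 and 0.0296 FPKM in STO cells. Piwil4 (MIWI2) was at 0.0241 and 0 FPKM in NSCs and 0.0168, 0.0293 and 0.0552 FPKM in STO cells. Both PIWI genes were detected in STO replicate 3 alone, with 5 fragments each. Piwil1, Tdrd1 and Tdrd9 did not pass 0.0242 FPKM in any sample, and Mael and Asz1, which act in piRNA production, were listed at 0 in all 5. The Tudor scaffold Tdrd7 was transcribed in cells where no PIWI gene exceeded 0.0552 FPKM.

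In the synaptonemal complex, Syce2 was measured in both cell types and Sycp1 and Sycp2 mainly in STO cells. Syce2, a central element protein, was at 12.1 and 14.5 FPKM in NSCs and at 3.31, 4.34 and 5.07 FPKM in STO cells. The ranges did not overlap (means 13.3 ± 1.69, n = 2, and 4.24 ± 0.882, n = 3, SD), and the log2 difference was -1.46 (SE 0.15, limma adjusted p = 0.00014). In NSCs the files divided it between the transcripts NM_027954 (5.34 and 6.59 FPKM) and NR_031759 (6.80 and 7.94 FPKM), which share a start. A transcript that starts 147 bases further in, NM_001168244, was listed at 0 in NSCs and at 0.390, 0.698 and 0.562 FPKM in STO cells. The window of this later start holds both GCGGGAA and CACGTG, whereas the shared start printed above holds neither. Syce2 overlaps Gcdh on the opposite strand by 1060 bases. The library kit keeps the strand of the RNA, but the strand setting of the counting is not given in the sources used here, and Gcdh itself was at 8.06 and 8.93 FPKM in NSCs and 9.30 to 9.73 FPKM in STO cells.

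The lateral and transverse parts were seen in STO cells. Sycp1, which forms the transverse filaments, was listed at 0 in both NSC replicates and was at 0.464, 0.518 and 0.406 FPKM in STO replicates 1, 2 and 3, on 34.7 to 47.5 implied fragments a sample. All STO values lay above all NSC values (log2 difference 0.55, SE 0.037, limma adjusted p = 0.0011 with no minimum). Sycp2, a lateral element protein, was listed at 0 in NSC replicate 1, was at 0.0306 FPKM in NSC replicate 2 and at 0.296, 0.279 and 0.327 FPKM in STO cells. The STO values were the higher ones, with a log2 difference of 0.36 (SE 0.024, limma adjusted p = 0.00099 with no minimum). Its neighbour Ppp1r3d, 3548 bases upstream on the same strand, was at 1.12 and 1.15 FPKM in NSCs and at 2.72 to 2.97 FPKM in STO cells. The part of Ppp1r3d in the Sycp2 value was not tested. By the implied fragments the STO level of Sycp2 was 18.3 times that of NSCs, with a 95% counting interval of 8.20 to 50.7. That interval covers counting error and not the spread between cultures. Their partners were silent: Sycp3, the other lateral element protein, and the central element genes Syce3 and Tex12 were listed at 0 in all 5 samples, and Syce1 had a single value above 0, of 0.0199 FPKM. No sample held detectable transcripts of all 7 genes.

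**Figure D2:**
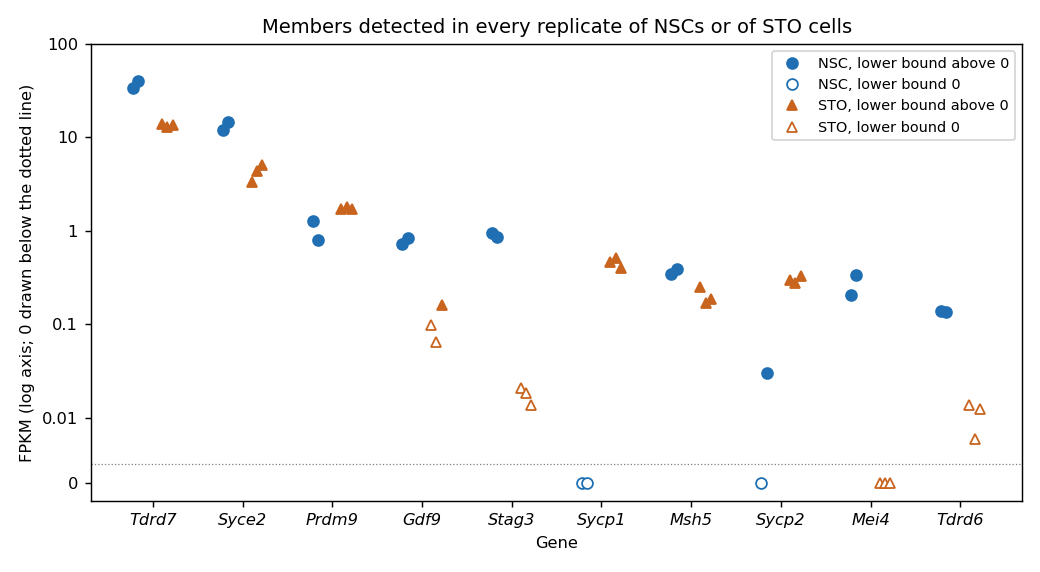
FPKM per sample (log axis, with 0 drawn below the dotted line) of the 10 members detected in every replicate of NSCs (circles) or of STO cells (triangles); open symbols mark samples in which the gene was not detected. Tdrd7 and Syce2 stand above 3 FPKM in every sample, Sycp1 and Sycp2 are higher in STO cells, and Stag3, Mei4 and Tdrd6 are detected in NSCs only.

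Of the meiotic axis and cohesin genes, 1 was detected in every replicate of a cell type. Stag3, the meiosis-specific STAG subunit of cohesin, was at 0.963 and 0.865 FPKM in NSCs, on 128 and 125 implied fragments. In STO replicates 1, 2 and 3 it was at 0.0210, 0.0183 and 0.0138 FPKM, which is 2 fragments per sample and under the detection limit. The cell types did not overlap, with a log2 difference of -0.91 (SE 0.025, limma adjusted p = 0.000105 with no minimum), and by implied fragments the NSC level was 53.6 times that of STO cells (95% counting interval 24.2 to 147). Stag3 lies at chr5:138721737-138753621 (mm9), and Gpc2 starts 572 bases from it on the opposite strand. Gpc2, a glypican of the developing nervous system, was at 9.62 and 8.22 FPKM in NSCs and at 0.0154 to 0.0706 FPKM in STO cells, and its part in the Stag3 value was not tested.

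The partners of Stag3 in meiotic cohesin were low or silent. Rec8, the meiotic kleisin, was at 0.0646 and 0.147 FPKM in NSCs, detected in replicate 2, and listed at 0 in STO cells. Rec8 ends 5 bases from the end of Ipo4, a gene of the opposite strand at 28.6 to 40.5 FPKM. Smc1b reached 0.0144 FPKM at most, and the second meiotic kleisin Rad21l and the axis proteins Hormad1 and Hormad2 were listed at 0 in all 5 samples.

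The mitotic counterparts were all transcribed. Smc1a, the counterpart of Smc1b, was at 46.1 and 50.9 FPKM in NSCs and 65.5, 69.7 and 72.2 FPKM in STO cells (log2 difference 0.50, limma adjusted p = 0.00057). Rad21, the mitotic kleisin, was at 81.4 and 89.3 against 87.0, 94.8 and 98.5 FPKM, with a difference of 0.13 that did not pass the test (limma adjusted p = 0.15). Stag1 was at 11.2 and 13.3 against 23.8 to 25.9 FPKM and Stag2 at 24.2 and 25.5 against 31.0 to 33.5 FPKM, and both rose in STO cells (log2 differences 0.96 and 0.38, limma adjusted p = 4.7e-05 and 0.00097). In the list of 10 mitotic cohesin and loader genes, 8 were higher and none lower in STO cells (41.9% and 43.7% of all genes tested). The median difference was 0.75 against -0.02 over all genes. Smc3 (25.8 and 28.6 against 58.4 to 63.5 FPKM) and Pds5a (12.8 and 12.2 against 52.5 to 55.4 FPKM) were among the 8. Stag3 had the opposite sign to Stag1 and Stag2, and in NSCs it stood below both of them per length.

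**Figure D3:**
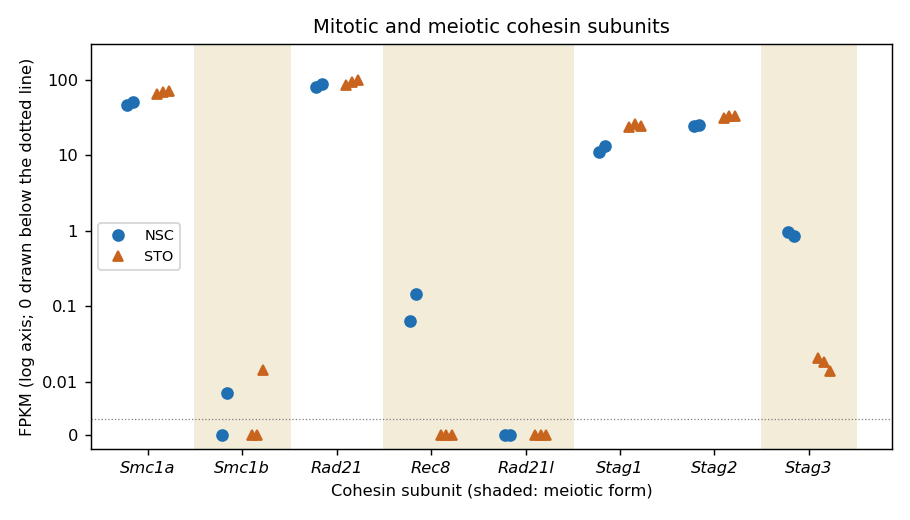
FPKM per sample (log axis, with 0 drawn below the dotted line) of mitotic cohesin subunits and of their meiotic forms (shaded) in NSCs (circles) and STO cells (triangles). The mitotic subunits lie between 11.2 and 98.5 FPKM, and every meiotic form lies below 1 FPKM.

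Of the 8 genes of double-strand breaks and recombination, 3 were detected in both NSC replicates and 2 in all STO replicates (54.3% and 49.2% of all genes). Prdm9, the histone methyltransferase that places meiotic breaks, was at 1.28 and 0.805 FPKM in NSCs and at 1.70, 1.81 and 1.71 FPKM in STO cells. The STO values lay close together and above both NSC values, which themselves differed (means 1.74 ± 0.0612, n = 3, and 1.04 ± 0.334, n = 2, SD). The log2 difference was 0.43 (SE 0.099, limma adjusted p = 0.0060), and it moved with the settings: without NSC replicate 2 it was 0.27, after quantile normalization 1.08, and with all 24744 genes in the fit its adjusted p was 0.053. Its signal came from 1 transcript row, on 96.0 to 199 implied fragments a sample, and no other gene lay within 5 kb.

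Msh5 and Mei4 were the others. Msh5, which forms with Msh4 the clamp that stabilises crossover intermediates, was at 0.349 and 0.392 FPKM in NSCs and at 0.250, 0.169 and 0.188 FPKM in STO cells, with no overlap (log2 difference -0.19, SE 0.038, limma adjusted p = 0.023 with no minimum). The files spread it over 3 transcripts that changed from sample to sample. Of the genes near Msh5, Sapcd1, 589 bases away, was at 0.760 and 1.28 FPKM in NSCs and at most 0.0738 FPKM in STO cells. Clic1, 3498 bases away, went the other way, at 158 and 166 against 208 to 240 FPKM. Their part in the Msh5 value was not tested. Mei4, required for break formation, was at 0.204 and 0.340 FPKM in NSCs and listed at 0 in the 3 STO samples (log2 difference -0.34, SE 0.052, limma adjusted p = 0.010 with no minimum), and no gene lay within 5 kb of it.

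Spo11, Dmc1 and Mei1 were detected in no sample. Spo11, the enzyme that cuts the DNA, reached 0.0966 FPKM and Dmc1, the meiotic recombinase, 0.0839 FPKM, both in STO replicate 2 and both below the detection limit. Mei1 was at 0.00995 and 0.0182 FPKM in NSCs and listed at 0 in STO cells. Msh4, the partner of Msh5, was listed at 0 and at 0.0610 FPKM in NSCs and was at 0.0665, 0.0471 and 0.133 FPKM in STO cells. It was detected in NSC replicate 2 and in STO replicate 3, and the ranges overlapped. Rabggtb, 1151 bases upstream of Msh4 on the same strand, was at 36.5 FPKM in both NSC replicates and at 35.5 to 37.8 FPKM in STO cells. Its part in the Msh4 value was not tested. Meiob, a single-strand DNA binding protein, was at 0.0187 and 0.102 FPKM in NSCs, detected in replicate 2, and listed at 0 in STO cells.

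Repair genes used by all cells stood far above them. Rpa1, which coats single-stranded DNA, was at 49.3 and 49.4 FPKM in NSCs and 62.7 to 65.4 FPKM in STO cells, and Msh6, a mismatch repair protein, at 21.5 and 22.1 against 31.9 to 33.6 FPKM. All 16 genes of this list were detected in every sample (45.8% of all genes). In STO cells 13 were higher and 2 lower (41.9% and 43.7% of all genes tested), and the median difference was 0.60.

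Germ cell identity genes were close to silent. Nanos3, which keeps primordial germ cells alive, was at 0.0459 and 0.126 FPKM in NSCs and at 0.256, 0.330 and 0.252 FPKM in STO cells. The ranges did not overlap (log2 difference 0.24, SE 0.049, limma adjusted p = 0.025 with no minimum), but no sample had more than 4.71 implied fragments and only STO replicate 3 passed the detection limit. Nanos2, which maintains spermatogonial stem cells, was at 0.0663 and 0.121 FPKM in NSCs, detected in replicate 2, and listed at 0 in STO cells. Ddx4 did not exceed 0.0558 FPKM and Dazl 0.00996 FPKM in any sample, and Dppa3 (Stella) and Stra8, the gene of meiotic entry, were listed at 0 in all 5.

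Of the oocyte genes, Gdf9 alone was detected. This growth factor, which oocytes secrete to their granulosa cells, was at 0.723 and 0.837 FPKM in NSCs and at 0.0983, 0.0643 and 0.161 FPKM in STO cells, where it was detected in replicate 3. It fell in STO cells by 0.68 in log2 (SE 0.053, limma adjusted p = 0.0016 with no minimum), and the NSC level was 7.01 times that of STO cells by implied fragments (95% counting interval 4.05 to 12.3). Its neighbour Uqcrq, a subunit of the respiratory chain 2455 bases away, was at 109 and 122 FPKM in NSCs and 38.5 to 46.9 FPKM in STO cells. The oocyte transcription factor Figla and the egg coat genes Zp1 and Zp2 were listed at 0 in all 5 samples, and Nobox and Zp3 had values above 0 in STO replicate 3 alone, of 0.0154 and 0.0663 FPKM. None of the 4 genes of meiotic telomeres and kinetochores was detected: Meikin and Terb2 were listed at 0 throughout, Terb1 reached 0.0323 FPKM and Majin 0.0240 FPKM.

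Summed by role, the level differed between cell types without overlap for the synaptonemal complex (12.1 and 14.6 against 4.07, 5.13 and 5.80 FPKM), the axis and cohesin (1.03 and 1.02 against 0.0210, 0.0183 and 0.0282 FPKM), the piRNA pathway (34.4 and 40.3 against 13.0 to 13.9 FPKM), the oocyte genes (0.723 and 0.837 against 0.0983, 0.0643 and 0.243 FPKM) and, higher in STO cells, recombination (1.88 and 1.81 against 2.10, 2.21 and 2.10 FPKM). The exact two-sided permutation test gave p = 0.2 for each of these, which is the smallest p that 2 against 3 samples allow, so no role could pass a threshold of 0.05. Germ cell identity and telomeres and kinetochores overlapped (p = 0.4 and 1.0 by the exact permutation test). Each sum was led by 1 gene: without Syce2 the synaptonemal complex was higher in STO cells by 0.78 in log2, and without Prdm9 recombination was lower in STO cells by a difference of -0.36. Without Gdf9 the oocyte sum overlapped between cell types (0.038, exact permutation p = 1.0), and the differences of the axis without Stag3 and of the piRNA pathway without Tdrd7 shrank to -0.14 and -0.20.

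The number of members detected followed no clean division by cell type. It was 8 and 14 in NSC replicates 1 and 2 and 6, 6 and 11 in STO replicates 1, 2 and 3, which overlap (exact two-sided permutation test, p = 0.4), while all genes were detected at 55.5% and 55.7% in NSCs and 50.4%, 50.5% and 51.8% in STO cells. The deepest library of each cell type gave the most. All 6 members detected in only 1 NSC replicate (Nanos2, Sycp2, Rec8, Meiob, Msh4 and Tdrd5) were detected in replicate 2, where among all such genes 53.8% were, and all 5 detected in some but not all STO replicates (Nanos3, Msh4, Piwil2, Piwil4 and Gdf9) were detected in replicate 3 and in no other, where 73.1% of all such genes included replicate 3. The part of depth in these 11 calls was not tested. With the fragments of every sample scaled to STO replicate 1, an alternative chosen after seeing the data, 33 members were detected in no sample, and the members detected in every replicate were still 8 in NSCs and 6 in STO cells.

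**Figure D4:**
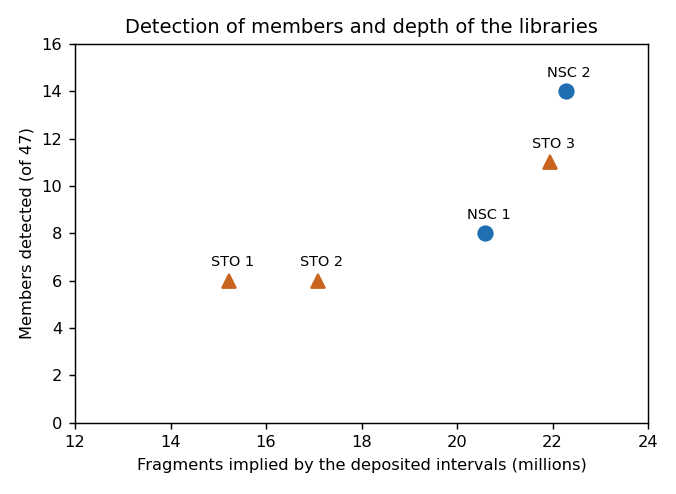
Members detected (of 47) against the fragments implied by the deposited intervals, for NSC samples (circles) and STO samples (triangles). The 2 samples with most fragments, NSC replicate 2 and STO replicate 3, have the most members detected, 14 and 11.

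Promoter windows were found for 36 of the 47 members, all but Dppa3, Spo11, Meiob, Meikin, Majin, Terb2, Piwil2, Tdrd6, Zp1, Zp2 and Gdf9. TTCCCGC or its complement, searched on both strands, stood in a window of 10 of the 36 (27.8%), against 5.29% of the 27025 genes with a window and 11.7% of the 9010 genes with at least 16 CpG, the median number of the members. CACGTG, which reads the same on both strands and can share at most 1 base with the other motif, stood in 12 (33.3%), against 8.09% and 12.6%. Either motif was present in 16 members (44.4%, against 12.8% and 22.9%). The median ratio of observed to expected CpG was 0.58 in members, 0.39 in all genes and 0.84 in the CpG-rich set. No test was made, and a match of letters is not a bound site.

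Both motifs stood in windows of detected and of silent members. Of the 8 members with a window that were detected in every replicate of a cell type, 4 held the E2F letters and 3 the E-box. For Syce2 and Prdm9 the E2F letters stood only in a window other than the printed one. That of Prdm9 belongs to a start 1031 bases from the start of its measured transcript. Of the 22 detected in no sample, 5 held the E2F letters and 9 the E-box. Of the 6 detected in some replicates only, 1 held the E2F letters and 0 the E-box. These sets are small and were not compared by a test. Ddx4, Sycp3 and Tex12, printed above, and Hormad1 held both and were silent, whereas Stag3, at 0.963 and 0.865 FPKM in NSCs, and Syce2, in the window of its later start, also held both. Tdrd7, the highest member, held neither in any of its 3 windows. Asz1 and Dazl, both silent, also held neither, with CpG ratios of 0.78 and 0.80.

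**Figure D5:**
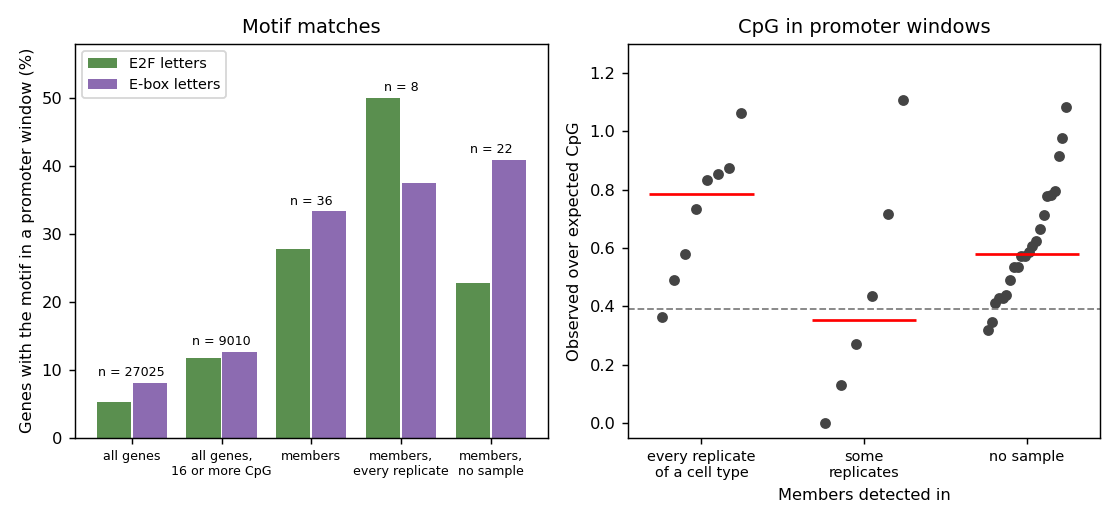
Left, share of genes (%) with the E2F letters or the E-box in a promoter window, for all genes, genes with at least 16 CpG, all members, members detected in every replicate of a cell type and members detected in no sample. Right, ratio of observed to expected CpG for each member (points) by detection, with medians (red lines) and the median of all genes (dashed line, 0.39); the members detected in some replicates only have the lowest median, 0.35.

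The repressors that act on such promoters were transcribed in both cell types. All 17 genes of that list were detected in every sample (45.8% of all genes). Of the 16 tested, 9 were higher and 6 lower in STO cells (41.9% and 43.7% of all genes), with a median difference of 0.16. Trim28, the corepressor of KRAB zinc finger proteins, was at 105 and 114 FPKM in NSCs and 142 to 152 FPKM in STO cells, and Ehmt2, a methyltransferase of histone H3 lysine 9, at 63.4 and 60.0 against 107 to 111 FPKM. Dnmt1, which maintains DNA methylation, was at 63.8 and 56.7 against 73.8 to 75.5 FPKM, and Cbx3, an HP1 protein, fell from 134 and 120 to between 70.9 and 78.9 FPKM. All 4 passed the test. E2f6 and Dnmt3a, chosen after their values were seen, also fell in STO cells: E2f6 from a mean of 22.6 to 6.40 FPKM (log2 difference -1.67, limma adjusted p = 5.5e-06) and Dnmt3a from 19.2 and 19.3 to between 5.73 and 6.18 FPKM (-1.55, adjusted p = 6.1e-07). Others of the list went both ways. The mean of Max fell from 41.6 to 24.9 FPKM, whereas Mga rose from 6.44 to 10.3 and Pcgf6 from 6.05 to 9.86 FPKM. Dnmt3b, below 1 FPKM, rose from a mean of 0.480 to 0.830 FPKM.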

How the data were processed

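RNA-seq of 2 NSC and 3 STO samples was used, grouped by their labels. By the paper's methods and the submitters' processing notes, stranded mRNA libraries were aligned to mm9 with HISAT2 (listed as 4.8.2) and quantified with Cufflinks 2.2.1. The authors deposited FPKM values with confidence bounds for 40201 RefSeq transcripts per sample, which already divide out depth and length. The number of fragments was derived here from those bounds. Intervals on it cover counting error only, and no read counts were used.

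Of the transcripts, 39951 were named through RefSeq identifiers of a GRCm38.p6 table and 155, Piwil4 among them, by position on mm9 (reciprocal overlap of at least 0.5). FPKM values were summed per gene. STO cells were compared with NSCs on log2(FPKM + 1) with limma 3.58.1 in R 4.3.3 (trend, Benjamini-Hochberg adjustment over all genes tested, threshold 0.05), and the script was tested on simulated data. Sums by role were compared by an exact permutation test. Motif letters were counted in RefSeq promoter windows of 250 bases before to 50 after each start. Other steps used Python 3.11.15, pandas 2.3.3 and scipy 1.17.1.

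All 47 members were accounted for. Those detected in at least 1 sample are given with each sample's value. In other lists at most the 4 genes with the highest mean are named, besides counterparts of members and marker genes. The repressors E2f6, Dnmt3a, Max, Mga, Pcgf6 and Dnmt3b were added after their values were seen. The members and lists were chosen with earlier results of these data known. Other pseudocounts, filters, normalization, transcripts and left-out replicates were tried. The values of some counterparts are not reported here.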

Additional observations from a re-analysis of the deposited data

How the results depend on the processing

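Tdrd7 and Syce2 stayed lower in STO cells, and past the threshold, under every alternative run (without an NSC replicate the spread comes from STO cells alone), with log2 differences of -1.51 to -1.25 and -1.65 to -1.33. Prdm9 stayed higher but missed the threshold without a filter on low values (0.43, limma adjusted p = 0.053). Members called higher and lower numbered 3 and 10 without that filter (21.9% and 24.8% of all genes) and 4 and 8 with a minimum of 0.1 FPKM (39.8% and 43.8%), where more members were tested, most through their higher cell type. With at least 1 FPKM required, 2 members were detected in every NSC replicate, 3 in every STO replicate and 44 in no sample. With any value above 0 counted, these were 18, 14 and 15. Leaving out 1 replicate gave 8 to 14 for NSCs, 14 without replicate 1. The summed levels changed sign without their highest member for germ cell identity (-0.14), the synaptonemal complex (0.78), recombination (-0.36) and oocyte genes (0.038). That of telomeres and kinetochores changed sign with a pseudocount of 0.1 (-0.0075) and over left-out replicates (-0.016 to 0.019). Depth limits values under about 5 fragments.

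The labels number replicates 1 and 2 in both cell types, but nothing pairs them, and deviations of same-numbered samples correlated at 0.0019 and 0.064. A fit with a replicate block called 4984 genes higher and 5244 lower (5142 and 5364 without it), Tdrd7, Syce2 and Prdm9 kept their calls, and Prdm9 differed by 0.44 (adjusted p = 0.012).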

Other observations

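Outside the 47 genes, other germline genes included some that were abundant in NSCs. Of 24 further genes of the piRNA pathway and of spermatogonia, 15 were detected in no sample, against 38.8% of all genes. Detected in every NSC replicate were 6, and in every STO replicate 2 (54.3% and 49.2% of all genes). Dmrtb1, a transcription factor that times the entry of spermatogonia into meiosis, was at 57.2 and 53.6 FPKM in NSCs and at 0, 0 and 0.0324 FPKM in STO cells. Ddx25, a helicase of spermatids, was at 23.3 and 21.5 FPKM in NSCs and listed at 0 in the 3 STO samples. Tdrkh, the mitochondrial partner of PIWI proteins, was at 43.8 and 45.8 against 3.11, 3.64 and 3.16 FPKM. Dmrtb1 and Ddx25 entered the fit with a minimum only through NSCs, so its calls are not used for these genes. With no minimum, all 3 were lower in STO cells (limma adjusted p = 6.7e-06, 1.1e-05 and 4.9e-05), as were 24.8% of all genes. Brdt, a bromodomain protein of spermatocytes, was at 1.55 and 1.82 against 1.79, 2.10 and 1.80 FPKM. Brdt did not pass the test with no minimum (limma adjusted p = 0.41).

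Of 11 genes in a further list, of meiotic recombination, 6 were detected in no sample, against 38.8% of all genes. Tex101, among the 6, also stands in the list of piRNA and spermatogonial genes above and was counted in both. Sun1, which links telomeres to the cytoskeleton and also serves somatic nuclei, rose from 13.9 and 13.6 FPKM in NSCs to 41.0, 37.5 and 40.3 FPKM in STO cells (adjusted p = 1.1e-06). Zcwpw1, a reader of the histone marks that Prdm9 writes, was at 7.66 and 8.11 against 6.32, 6.42 and 7.06 FPKM and fell by 0.23 in log2 (adjusted p = 0.016). Of 12 further oocyte genes, 10 were detected in no sample, against the same 38.8%. Npm2 was at 0.319 and 0.291 against 0.311, 0.388 and 0.438 FPKM, with overlapping ranges. Ccdc36, Ankrd31, Rnf212, Shoc1 and H1foo were not analysed here.

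Markers of other cells were also summed. Pluripotency genes summed to 0.783 and 1.03 FPKM in NSCs and 0.0667 to 0.140 FPKM in STO cells. Of the 6, 4 were detected in no sample (38.8% of all genes). Esrrb alone made that gap (0.931 and 0.753 FPKM in NSCs, at most 0.00921 FPKM in STO cells), and the other 5 genes summed to 0.0962 and 0.0291 against 0.0667, 0.117 and 0.133 FPKM, which overlap. Genes of gonadal somatic cells summed to 101 and 115 against 49.3 to 58.9 FPKM, with 3 of 8 detected in no sample (38.8% of all genes). Sox9, also a gene of neural and glial cells, carried this sum. The other 7 genes together summed to 3.44 and 3.64 against 7.55, 7.05 and 6.83 FPKM. Gata4 carried that second sum, listed at 0 in NSCs and at 4.45 ± 0.370 FPKM (SD, n = 3) in STO cells. Star went with Sox9, at 1.56 and 1.69 against 0.657 to 0.705 FPKM, and the ranges of Inha and Amh overlapped. Markers of neurons and glia summed to 211 and 217 against 12.4 to 12.9 FPKM, led by Map2 (100 and 102 against 4.19 to 4.48 FPKM). Gfap, Mbp and Aqp4 were also higher in NSCs, whereas Tubb3 overlapped (9.25 and 8.14 against 7.84 to 8.57 FPKM). The summed markers of blood and endothelium did not exceed 0.202 FPKM in any sample.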
